A study of Danio rerio with 3 samples.

Results

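Pre-MN was the deposited name of 316 of 6264 single cells sorted from zebrafish embryos, and these cells were taken by that name in the authors' integrated annotation of all cells. They numbered 44 of 1826 cells at 24 hours post fertilisation (hpf), 111 of 2044 at 36 hpf and 161 of 2394 at 48 hpf. The cells came from untreated wild-type embryos of the strain Tg(olig2:EGFP), in which regulatory sequence of olig2 drives the green fluorescent protein EGFP. Embryos were dissociated, EGFP-positive cells were sorted, and each stage gave 1 library by the 10x Chromium 3' method, which counts RNA molecules by unique molecular identifiers (UMIs). All groups carried the same transgene and differed in stage, and no value has a replicate. The sources used here do not give the number of embryos behind each library.

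In the vertebrate spinal cord, motor neurons arise from the pMN domain, a strip of ventral progenitors that express the transcription factor Olig2. A progenitor that leaves the cell cycle lowers Olig2, turns on motor neuron factors such as Isl1 and Mnx1, and moves out to the mantle, where it grows an axon towards muscle. A cell caught on this way holds little RNA of the division machinery and does not yet have the full set of neuron transcripts. EGFP outlasts the RNA of olig2 in such cells, so that a sort for EGFP holds progenitors and their recent daughters together. The tables used here hold no value for any gene, so the name Pre-MN could not be checked against its markers olig2 and isl1. What could be set beside the name were the phase scores, the RNA content, the position of the cells among other classes, and a separate set of class names given to the same cells by the authors in a table per stage.

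The libraries held 10656224 to 17562789 UMIs in all, and the median cell had 8935.5, 4569 and 5774.5 UMIs at the successive stages. The Pre-MN cells accounted for 302708, 433931 and 944000 UMIs at the 3 stages. The 48 hpf library differed in its barcodes: 148 of its 161 Pre-MN cells (91.9%) had a barcode whose start of 7 bases occurred in no other library, whereas 109 of 111 Pre-MN cells at 36 hpf (98.2%) had a start found at 24 hpf. What sets 48 hpf apart from the other stages therefore cannot be told apart from this difference between libraries. Across libraries 7 whole barcodes recurred, and 1 Pre-MN cell carried such a barcode.

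The share of Pre-MN cells in the integrated annotation was lowest at 24 hpf, with 2.41% of the library (exact 95% binomial interval 1.76 to 3.22). It was 5.43% at 36 hpf (4.49 to 6.50) and 6.73% at 48 hpf (5.75 to 7.80). The 36 hpf share was 2.25-fold that at 24 hpf (95% interval 1.58 to 3.27), which met the size used here for a difference, a ratio of at least 2 with intervals that do not overlap. By the same rule 26.9% of the 26 integrated classes that could be compared had a higher share at 36 than at 24 hpf, and 39.3% of 28 had a higher share at 48 than at 24 hpf. Pre-MN, at 2.79-fold for 48 over 24 hpf (1.99 to 3.99), was thus among a large group of classes. At 48 over 36 hpf its ratio was 1.24 (0.966 to 1.59) and did not meet the rule, which 28.6% of the classes met. In cells matched on UMI depth over the libraries the log2 ratio at 36 over 24 hpf was 0.092, where all cells gave 1.17, and no longer met the rule. The log2 ratio was 1.46 in cells with at least 2000 UMIs and 1.44 in cells with at most 3% mitochondrial reads, and met the rule in both. That at 48 over 36 hpf was 0.97 in matched cells, where all cells gave 0.31, and stayed below the size for a difference. All intervals here cover counting error only.

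The class names given stage by stage put the order the other way round. By those names Pre-MN cells were 178 of the 24 hpf library (9.75%, 8.43 to 11.2), 136 of the 36 hpf library (6.65%, 5.61 to 7.82) and 150 of the 48 hpf library (6.27%, 5.33 to 7.31). The 24 hpf share was 1.47-fold that at 36 hpf (1.17 to 1.85) and 1.56-fold that at 48 hpf (1.24 to 1.95). The ratio at 48 over 36 hpf was 0.942 (0.742 to 1.20), and none of these ratios met the size for a difference. At 36 and 48 hpf the intervals of the 2 annotations overlapped, and at 24 hpf they were far apart. Both annotations name the same cells, so overlap of these intervals does not show that they agree. Cells named Pre-MN in both annotations were 31, 89 and 132, or 1.70%, 4.35% and 5.51% of the libraries. Cells with the name in at least 1 annotation were 191, 158 and 179, or 10.5%, 7.73% and 7.48%. For the cells named alike in both, the 48 hpf share was 3.25-fold that at 24 hpf (2.18 to 4.97). For those with the name in either annotation, the 24 hpf share was 1.40-fold that at 48 hpf (1.13 to 1.73), below the size for a difference.

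**Figure D1:**
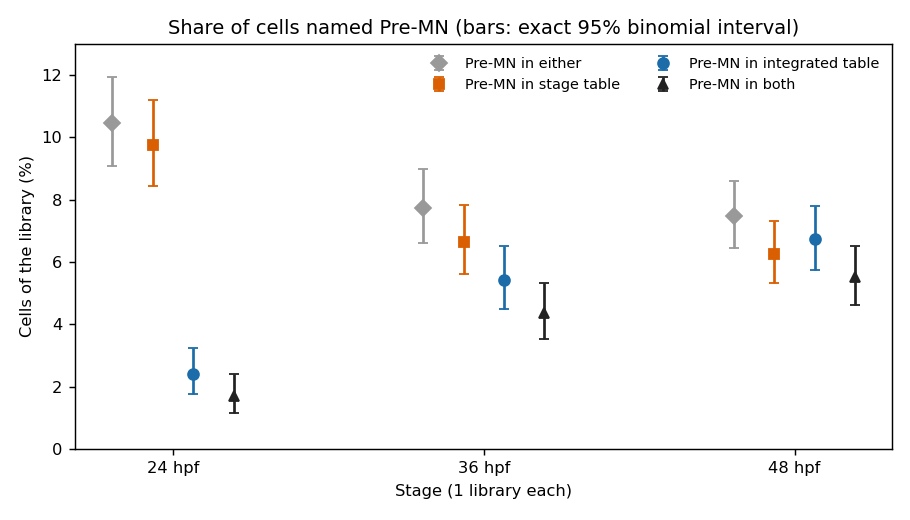
Percent of the cells of each library (y axis) named Pre-MN at 24, 36 and 48 hpf (x axis, 1 library each) in the integrated annotation, in the stage annotation, in both and in either, with exact 95% binomial intervals. At 24 hpf the integrated share of 2.41% and the stage-table share of 9.75% lie far apart, and at 48 hpf the shares of 6.73% and 6.27% lie together.

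By the integrated names there were fewer pMN progenitors for each Pre-MN cell at every later stage. The library held 12.9 cells of the classes pMN1 to pMN3 for each Pre-MN cell at 24 hpf (567 against 44, exact 95% interval 9.47 to 17.9). There were 3.76 at 36 hpf (417 against 111, 3.04 to 4.67) and 1.04 at 48 hpf (168 against 161, 0.836 to 1.30). None of these intervals overlapped. Both counts enter the ratio: from 36 to 48 hpf the pMN cells fell in number, while the Pre-MN share of the library, at 1.24-fold, did not meet the rule. The ratio was not computed in cells matched on UMI depth. The stage names gave 2.96 (2.49 to 3.52), 3.55 (2.93 to 4.33) and 0.460 (0.341 to 0.616) at the same stages, so the low ratio at 48 hpf appeared in both annotations and the difference between 24 and 36 hpf in the integrated one.

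Set against the classes MN1 to MN5, Pre-MN cells did not become more frequent. No other class was counted as motor neurons here. For every 100 cells of the classes MN1 to MN5 there were 31.0 Pre-MN cells at 24 hpf (44 against 142, 21.6 to 43.7) and 31.0 at 36 hpf (111 against 358, 24.8 to 38.5). At 48 hpf there were 19.8 (161 against 813, 16.6 to 23.5), an interval that overlapped that at 24 hpf and lay below that at 36 hpf. Without MN5 the values were 38.9, 35.5 and 28.0, again lowest at 48 hpf. By the stage names the values were 145 (114 to 184), 40.0 (32.5 to 48.9) and 17.8 (14.8 to 21.2), lower at each later stage with no overlap. Those names did not count the same motor neuron classes at each stage. All 123 MN cells at 24 hpf were MN1, compared with 176 of 340 at 36 hpf and 300 of 844 at 48 hpf. Of all pMN, Pre-MN and MN cells in a library, Pre-MN made up 5.84% (4.28 to 7.77), 12.5% (10.4 to 14.9) and 14.1% (12.1 to 16.3) at the successive stages.

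**Figure D2:**
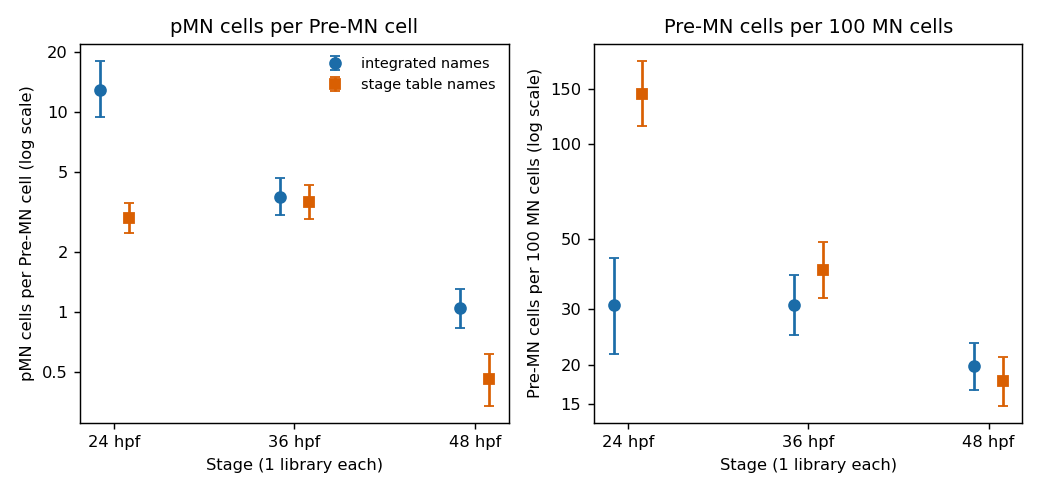
Left, pMN cells per Pre-MN cell, and right, Pre-MN cells per 100 MN cells (log scales), by stage (x axis, 1 library each) for the integrated and the stage names, with exact 95% intervals. Integrated pMN cells per Pre-MN cell go from 12.9 to 1.04, and Pre-MN cells per 100 MN cells are 31.0, 31.0 and 19.8.

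The gap between the annotations at 24 hpf lay at the border between Pre-MN and neural precursors. Of the 178 cells named Pre-MN in the 24 hpf table, 88 (49.4%) were NP2 in the integrated annotation and 38 (21.3%) were NP1, while 31 (17.4%) were Pre-MN. NP1 and NP2 are the authors' names for precursor classes, of which NP2 holds mostly cells called G1. Of the other 21 cells, 6 were pMN3 and 8 were Pre-V3 IN, which falls outside the rule for naming classes. Of the 136 cells so named at 36 hpf, 46 (33.8%) were NP2, 89 (65.4%) were Pre-MN and the remaining cell had another name. At 48 hpf 132 of 150 (88.0%) were Pre-MN, 8 (5.33%) were MN1 and 4 were NP2. Seen from NP2, the stage tables named 64.2% of its 137 cells Pre-MN at 24 hpf (interval 55.6 to 72.2), 34.1% of its 135 cells at 36 hpf (26.1 to 42.7) and 4.04% of its 99 cells at 48 hpf (1.11 to 10.0). The cells that moved between NP2 and Pre-MN thus went from a majority of NP2 to a small share of it, with intervals that did not overlap.

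The other border of the class, towards motor neurons, was counted from the integrated Pre-MN cells. At the border with neural precursors the shares were counted from the stage-table Pre-MN cells or from NP2. How even the borders were over the stages therefore cannot be compared. Of the 44 integrated Pre-MN cells at 24 hpf, 31 were also Pre-MN in the stage table (70.5%, 54.8 to 83.2) and 11 were MN1 (25.0%, 13.2 to 40.3), a motor neuron class. At 36 hpf 89 of 111 were Pre-MN (80.2%, 71.5 to 87.1) and 21 were MN1 (18.9%, 12.1 to 27.5). At 48 hpf 132 of 161 were Pre-MN (82.0%, 75.2 to 87.6) and 28 were MN1 (17.4%, 11.9 to 24.1). The intervals overlapped at all stages for both names. The remaining 4 cells, which fell outside the rule for naming classes, were 2 named NP at 24 hpf, 1 named MN2 at 36 hpf and 1 named OPC (oligodendrocyte precursor cell) at 48 hpf. In the other direction, the integrated MN1 class took 8 cells named Pre-MN at 48 hpf and none of its 43 cells at 24 hpf or 82 cells at 36 hpf.

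In the deposited two-dimensional projection of the integrated table, Pre-MN cells filled the stretch between NP2 and MN1. The nearest cell outside the class was an MN1 cell for 174 of the 316 Pre-MN cells (55.1%), an NP2 cell for 141 (44.6%) and a V3 IN cell for 1. NP2 was nearest for 26 of 44 cells at 24 hpf (59.1%, 43.2 to 73.7), 43 of 111 at 36 hpf (38.7%, 29.6 to 48.5) and 72 of 161 at 48 hpf (44.7%, 36.9 to 52.7). The share with NP2 as nearest class was highest at 24 hpf, and its interval overlapped those of both other stages. The names of the stage tables followed the same stretch. All 60 Pre-MN cells named MN1 there lay nearest to an MN1 cell, whereas 138 of the 252 named Pre-MN (54.8%) lay nearest to NP2. On the first axis the cells named Pre-MN had a median of -0.55 at 24 hpf, -1.04 at 36 hpf and -1.12 at 48 hpf, between NP2 at 1.92, 1.65 and 1.49 and MN1 at -4.01, -3.96 and -4.01. The Pre-MN cells named MN1 had medians of -2.02, -2.18 and -2.33. Classes and projection were made from the same cells, so these positions describe the classes and test nothing.

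**Figure D3:**
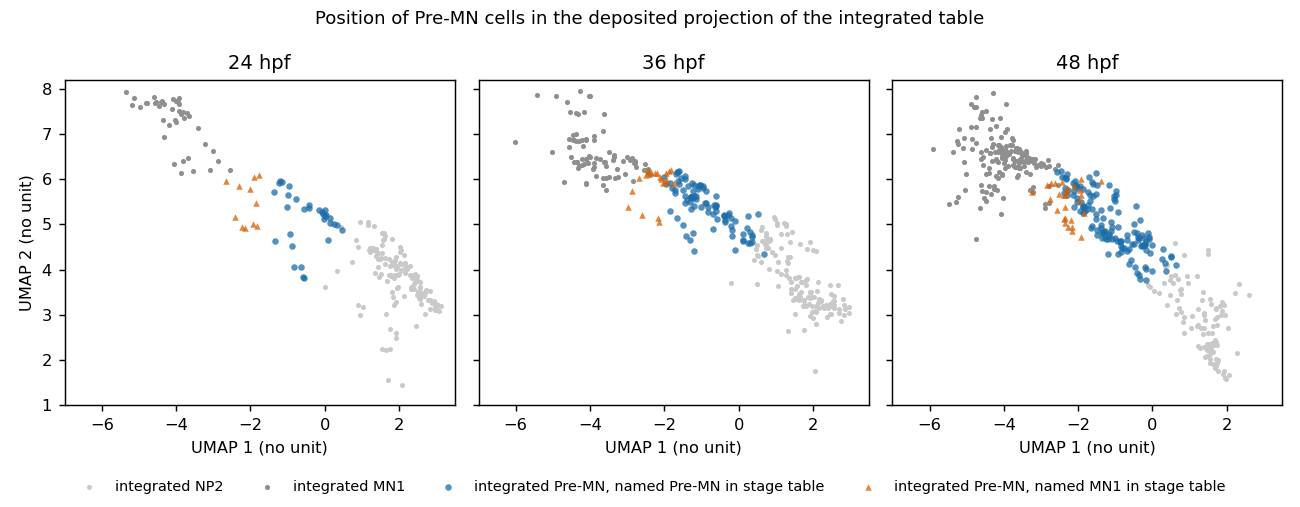
Deposited projection coordinates (UMAP 1 and UMAP 2, no unit) of integrated Pre-MN cells, coloured by their name in the stage table, with integrated NP2 and MN1 cells in grey, 1 panel per stage. Pre-MN cells form a band between NP2 and MN1, with the cells named MN1 on the MN1 side (the 4 cells with other names are not drawn, and 1 Pre-MN cell and 4 cells of NP2 or MN1 lie outside the window).

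Pre-MN cells were lighter in RNA than the progenitors and followed the depth of their library. At 24 hpf a Pre-MN cell had 650 to 22339 UMIs, with a median of 7943.5 and an interquartile range of 2340 to 9515.5. At 36 hpf the range was 891 to 14938, with a median of 3854 (3252 to 4448). At 48 hpf it was 688 to 19839, with a median of 5111 (4306 to 6208). The 24 hpf cells were spread widely, the 36 hpf cells closely, and the ranges of all stages overlapped. The pMN cells of the same libraries had medians of 10954, 6787 and 10103.5 UMIs, above Pre-MN at each stage. NP2 had 7298, 4049 and 4881 and MN1 had 10000, 3730.5 and 5299, so Pre-MN differed little from either at 36 and 48 hpf. Detected genes in Pre-MN had medians of 1784, 1162 and 1671 per cell.

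Few UMIs marked part of the class at 24 hpf. There 10 of the 44 cells (22.7%, 11.5 to 37.8) had under 2000 UMIs, compared with 2.92% of NP2, 2.33% of MN1 and 7.01% of all cells in that library. The mitochondrial share in these 10 cells had a median of 2.94%, compared with 0.718% in the remaining Pre-MN cells. Over all cells of that library, split alike, the medians were 2.84% and 0.674%. A spread towards few UMIs was also seen in NP1, with a lower quartile of 2493 UMIs at 24 hpf where Pre-MN had 2340. In MN1 to MN5 that quartile was 3672. At 36 hpf 10 of 111 Pre-MN cells (9.01%, 4.41 to 15.9) and at 48 hpf 9 of 161 (5.59%, 2.59 to 10.3) had under 2000 UMIs. Over all cells of these libraries the shares were 10.1% and 4.30%, inside those intervals. The median mitochondrial shares of the shallow Pre-MN cells were 2.53% and 2.89%, compared with 1.04% and 2.25% in the remaining Pre-MN cells. Over all cells, split alike, the medians were 3.21% and 1.02% at 36 hpf and 3.16% and 2.34% at 48 hpf. Over all Pre-MN cells the mitochondrial share had medians of 0.827% (quartiles 0.628 and 2.16), 1.06% (0.879 and 1.36) and 2.27% (1.96 and 2.77), where all cells of the libraries had 0.686%, 1.06% and 2.35%. Shallow cells, the mitochondrial share and the class moved together at 24 hpf, and their part in the naming of these cells was not tested.

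The cells on the MN1 side of the class changed place in median RNA content between stages. The stage-table name MN1 did not cover the same part of the MN cells at each stage. It held all 123 MN cells at 24 hpf, 176 of 340 at 36 hpf and 300 of 844 at 48 hpf. At 24 hpf the 11 Pre-MN cells named MN1 in the stage table had 1009 to 10546 UMIs with a median of 2391, and the 31 cells named Pre-MN had a median of 8611. At 36 hpf the medians were 3381 for 21 cells and 3992 for 89 cells. At 48 hpf the order of the medians was turned, with 8502.5 for 28 cells named MN1 and 5082 for 132 cells named Pre-MN. The 28 cells were spread widely, with quartiles of 2990.75 and 11178, compared with 4332 and 5751.25 for the cells named Pre-MN. Cells with few UMIs were thus still present among those named MN1, whose lower quartile lay below that of the others. Median detected genes had the same order as median UMIs at each stage. They were 1051, 1121 and 2587 in the cells named MN1 and 1944, 1162 and 1650 in those named Pre-MN. The cells named MN1 also had the higher median mitochondrial share at each stage, with 2.18% against 0.732%, 1.33% against 0.995% and 2.55% against 2.23%. The log2 ratio of the UMI medians was -1.85 at 24 hpf, -0.24 at 36 hpf and 0.74 at 48 hpf. Among cells with at least 2000 UMIs it was -0.71 at 24 hpf (7 against 25 cells), -0.23 at 36 hpf and 0.77 at 48 hpf.

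**Figure D4:**
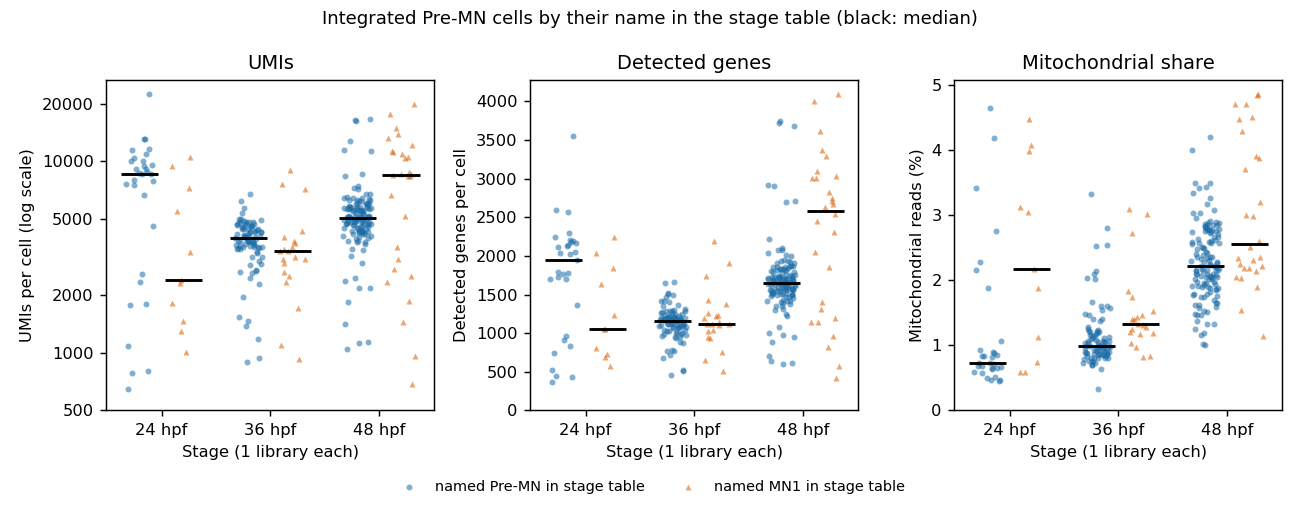
UMIs per cell (log scale), detected genes and mitochondrial percent of integrated Pre-MN cells by stage (x axis, 1 library each), split by their name in the stage table, with each cell as a point and medians as black lines. The median UMIs of cells named MN1 lie below those of cells named Pre-MN at 24 hpf (2391 and 8611) and above them at 48 hpf (8502.5 and 5082), and the 4 cells with other names are not drawn.

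Within windows of UMI count, the median number of detected genes in Pre-MN cells lay between those of NP2 and MN1. In cells of 4000 to 5000 UMIs at 36 hpf the median was 1221 genes in 41 Pre-MN cells, 1200.5 in 56 NP2 cells and 1488 in 21 MN1 cells. In the same window at 48 hpf the medians were 1584 in 45 Pre-MN cells, 1551 in 39 NP2 cells and 1664.5 in 34 MN1 cells. Between 7000 and 10000 UMIs at 24 hpf they were 2041 in 17 Pre-MN cells, 1889.5 in 62 NP2 cells and 2113.5 in 16 MN1 cells. The 48 hpf cells of that window had 2454 in 11 Pre-MN, 2290.5 in 6 NP2 and 2535 in 30 MN1 cells. The medians had the order NP2, Pre-MN, MN1 in all 4 windows, while the ranges of the classes overlapped in each. Depth was not equal within the wider windows: at 24 hpf the median UMIs were 8235 in NP2, 8650 in Pre-MN and 9359.5 in MN1, the same order as the genes, and at 48 hpf they were 7919, 8371 and 8119.5. In the narrower window they were 4427, 4418 and 4275 at 36 hpf and 4606, 4610 and 4450 at 48 hpf, so MN1 had the most genes there with the fewest UMIs. In Pre-MN, as in both other classes, the 48 hpf cells had more genes at a given depth than the cells of the earlier library.

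The phase scores of nearly all Pre-MN cells were below 0 in the integrated table at every stage. An S score and a G2M score summarise genes of DNA synthesis and of division, and the authors called G1 where neither was above 0. In the integrated table the S score of Pre-MN cells had medians of -0.276 (quartiles -0.321 and -0.233), -0.293 (-0.317 and -0.246) and -0.296 (-0.329 and -0.252) over the successive stages. The G2M score had medians of -0.191 (-0.213 and -0.149), -0.189 (-0.230 and -0.163) and -0.211 (-0.257 and -0.180). The quartile ranges of both scores overlapped between all stages. The higher of both scores in a cell had medians of -0.184, -0.181 and -0.209 in Pre-MN, compared with 0.752, 0.792 and 0.879 in the pMN classes. It was -0.126, -0.139 and -0.137 in NP2 and -0.281, -0.282 and -0.290 in MN1, so that Pre-MN lay between its neighbours at each stage, with overlapping ranges.

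By the integrated calls nearly all Pre-MN cells were in G1, which was also so in the neighbouring classes. The share called S or G2M was 8.03%, 4.44% and 0% in NP2 and 0%, 1.22% and 0% in MN1 over the successive stages. Over all cells of the libraries the higher integrated score had medians of 0.347, -0.119 and -0.183. The median cell at 36 and 48 hpf was thus G1 as well, unlike at 24 hpf. At 24 hpf 42 of 44 were G1 and 2 were G2M (4.55% S or G2M, 0.555 to 15.5). At 36 hpf 108 of 111 were G1, 1 was S and 2 were G2M (2.70%, 0.561 to 7.70). At 48 hpf all 161 were G1, which allows a share of up to 2.27%. The intervals of the stages overlapped, and counts of 0 to 3 cells were too small for a ratio. In the classes MN1 to MN5 the share called S or G2M was 1.41% at 24 hpf, 2.51% at 36 hpf and 0.615% at 48 hpf. These values lay inside the Pre-MN interval at each stage. No difference from these classes was therefore seen with these numbers of cells, and none was tested.

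The 5 cells called S or G2M were unlike each other. At 24 hpf the G2M cells were the cell with the fewest UMIs of the class (650, G2M score 0.0299) and the cell with the most (22339, G2M score 0.338). At 36 hpf the S cell had 4008 UMIs, an S score of 0.313 and the name MN1 in the stage table. The G2M cells at 36 hpf had 2454 and 4796 UMIs and G2M scores of 0.106 and 0.00792, and the latter was called G1 in the stage table. With a threshold of 0.1 on the score, 1 cell at 24 hpf and 2 cells at 36 hpf remained. Whether the cell of 22339 UMIs is a doublet was not tested, since that would need values per gene.

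The calls of the stage tables differed at 48 hpf. They gave the same phase as the integrated table to all 44 Pre-MN cells at 24 hpf and to 109 of 111 (98.2%) at 36 hpf, but to 104 of 161 (64.6%) at 48 hpf. There 46 cells were called S and 11 G2M, together 35.4% (28.0 to 43.3). The sources used here do not say how each stage table was scored, so no ratio between their calls is given. All 57 of these cells were G1 in the integrated table. Their scores lay just above 0, with a highest S score of 0.0885 and a highest G2M score of 0.0546, so that none of the 161 cells passed a threshold of 0.1. Of the pMN cells in that table, by contrast, 96.4% passed that threshold, and their median higher score was 0.715. The same calls gave 18.9% in MN1 to MN5 (16.3 to 21.8), 15.7% in MN1 (10.4 to 22.3) and 49.5% in NP2 (39.3 to 59.7). At 48 hpf Pre-MN thus lay between NP2 and MN1, with an interval that overlapped that of NP2. By the stage-table calls Pre-MN had 4.55%, NP2 1.46% and MN1 0% at 24 hpf. At 36 hpf the values were 2.70%, 1.48% and 1.22%. Pre-MN was thus highest of these classes at both stages, on 2 and 3 cells, with overlapping intervals. By the same calls NP1 had 47.2% at 24 hpf and 32.2% at 36 hpf, and MN1 to MN5 had 2.11% and 3.07%. RNA free in the droplets can enter such scores, and its part was not tested.

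The stage-table scores of Pre-MN cells lay closer to 0 at each later stage. The S score of Pre-MN cells in the stage tables had medians of -0.379, -0.166 and -0.0208 at 24, 36 and 48 hpf, whereas the integrated medians stayed between -0.296 and -0.276. Both neighbours moved alike, with stage-table S medians of -0.351, -0.162 and -0.0122 in NP2 and -0.408, -0.183 and -0.0412 in MN1. In the pMN cells these medians were 0.149, 0.158 and 0.155. The SD over Pre-MN cells of the stage-table S score was 0.0925, 0.0531 and 0.0334. Over all cells of a library it was 0.312, 0.241 and 0.131, and the integrated S score also had its smallest SD over all cells at 48 hpf (0.462, 0.438 and 0.293). In the pMN cells the SD of the stage-table S score was 0.259, 0.289 and 0.307, so it did not narrow there. Between the tables the S scores of the same Pre-MN cells had Spearman correlations of 0.65 (44 cells), 0.69 (111 cells) and 0.56 (161 cells). For the G2M scores they were 0.49, 0.62 and 0.62. The cells thus kept part of their order while their distance from 0 differed. With the UMI count of the cell, the S score of the stage table had a Spearman correlation of -0.69, -0.25 and 0.054 at the successive stages, and the integrated score had -0.28, -0.20 and -0.26. All these correlations are across cells of a library, which share their preparation, and are given as descriptions.

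**Figure D5:**
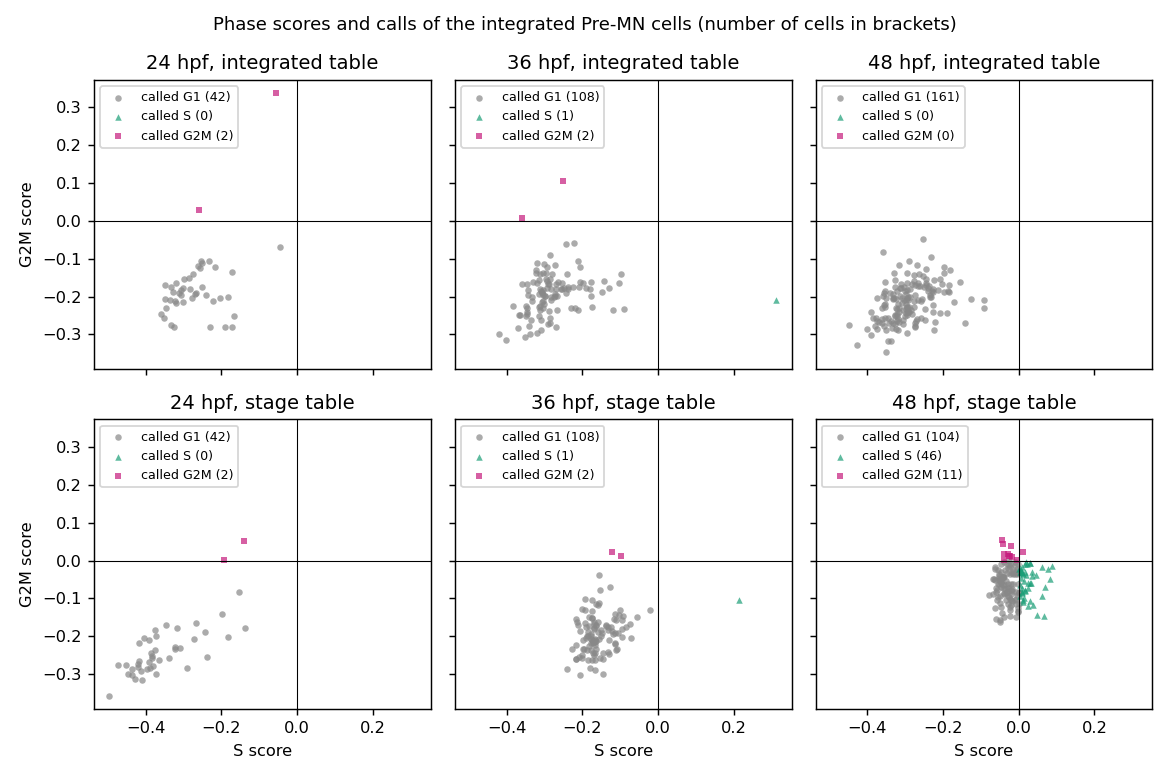
S score (x axis) and G2M score (y axis, both without unit) of each integrated Pre-MN cell, by stage (columns), in the integrated table (upper row) and the stage tables (lower row), coloured by the deposited phase call, with lines at 0. At 48 hpf no cell passes 0 in the integrated table, while 57 cells lie just above 0 in the stage table.

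The 57 cells called S or G2M in the 48 hpf table did not stand apart in depth or name. The 46 S cells had a median of 5091 UMIs, the 11 G2M cells 4748 and the 104 G1 cells 5234. Median detected genes were 1689.5, 1513 and 1693. Of the 132 cells named Pre-MN there, 50 were called S or G2M (37.9%, 29.6 to 46.7), and of the 28 named MN1 there were 7 (25.0%, 10.7 to 44.9), with overlapping intervals. In the integrated table the S cells had a median S score of -0.252 and the G1 cells -0.308, while the G2M cells had a median G2M score of -0.153 compared with -0.227 in the G1 cells. In these 2 comparisons the scores of the 2 tables thus had the same order, below 0 in the integrated table. The groups were themselves formed by the stage-table scores. By S score the G1 and G2M cells changed order, with medians of -0.0313 and -0.0248 in the stage table and -0.308 and -0.318 in the integrated table.

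The cells that only the stage tables named Pre-MN were a mixed group at 24 hpf. Of the 178 cells with the name there, 34 were called S or G2M in the integrated table. Of these, 19 were NP1, 5 were NP2, 5 were pMN3 and 2 were Pre-MN in the integrated annotation. At 36 hpf 2 of 136 and at 48 hpf 4 of 150 cells with the name were so called. The 147 cells at 24 hpf with another integrated name had a median of 7342 UMIs and a median higher score of -0.118, above the -0.175 of the 31 cells named Pre-MN in both tables.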

How the data were processed

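Per the file headers, each deposited table lists cells with their library, depth, phase and class, and no table holds a value per gene. A table for every stage and an integrated table of all cells were used. The UMIs and detected genes of a cell are counts deposited as they are, without scaling. The mitochondrial share is a percent that the authors deposited for each cell. No cell had under 504 UMIs or over 4.995% mitochondrial reads, which shows a filter before deposit. The S and G2M values and the projection coordinates are scores that the authors deposited, and the sources used here do not give the gene lists behind them. The submitters' processing notes name Cell Ranger, Seurat and GRCz11, without versions. The sources used here do not say how doublets were handled.

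The tables were joined on barcode and stage, which paired all 6264 cells. In every cell of both kinds of table the phase was that of the higher score, or G1 where neither score was positive. Each stage is 1 library, so stages could not be tested against each other and no p-values are given. Shares have Clopper-Pearson (exact) 95% intervals and ratios exact conditional ones. Ratios of at least 2 with intervals apart were called, with a floor of 3 cells standing for a count of 0. Classes named were the pMN and MN classes and those that either annotation gave to at least 5% of the Pre-MN cells of a stage. Others were named after their values were seen, to account for every Pre-MN cell and for single cells or small counts. Nearest cells were found by Euclidean distance in the projection. The rule and the intervals were run on simulated counts drawn independently from known shares. Those counts held no variation between libraries, so they cannot show how the rule behaves under it. Members and comparisons were chosen with earlier results of these data known.

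Alternatives were a minimum of 2000 UMIs, removal of the deepest 5% of each library, at most 3% mitochondrial reads, stage names, other denominators, matching on UMI depth (20 log bins giving 875 cells for each library, with counts averaged over all possible draws), a shared range of 2957 to 4890 UMIs, stage-table calls and a score threshold of 0.1. Naming in both or either table, the ratios to pMN and MN cells with their alternatives, and stage-table calls above 0.1 were added after seeing the data. Software was Python 3.11.15 with scipy 1.17.1, scikit-learn 1.9.0, numpy 2.4.6, matplotlib 3.10.9 and pandas 2.3.3.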

Additional observations from a re-analysis of the deposited data

Results flagged for a closer look

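The median depth of Pre-MN cells named MN1 in the stage tables, relative to Pre-MN cells named Pre-MN there, had opposite directions at 24 and 48 hpf. The log2 ratio of the median UMIs was -1.85 at 24 hpf (11 against 31 cells) and 0.74 at 48 hpf (28 against 132 cells). At 48 hpf the lower quartile of the cells named MN1 was 2990.75 UMIs, below the 4332 of those named Pre-MN, so the turn did not hold for the shallow cells. The difference between the stages was not tested, because each stage is 1 library. The stage-table name MN1 held all 123 MN cells at 24 hpf and 300 of 844 at 48 hpf, so it did not mark like sets. The cells named MN1 had a median mitochondrial share of 2.18% at 24 hpf and 2.55% at 48 hpf, compared with 0.732% and 2.23% in the cells named Pre-MN.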

How the results depend on the processing

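The share of Pre-MN cells at 36 over 24 hpf, a log2 ratio of 1.17, was 0.092 in cells matched on UMI depth and no longer called, and turned to -0.55 by the stage names and -0.44 for cells named Pre-MN in either table. The ratio at 48 over 24 hpf, 1.48, turned to -0.64 and -0.48 under those 2 annotations and was 1.06, just past the size for a call, in matched cells. That at 48 over 36 hpf, 0.31 and not called, was -0.087 and -0.048, and 0.97 in matched cells. With at least 2000 UMIs or at most 3% mitochondrial reads, the ratios at 36 over 24 hpf were 1.46 and 1.44. Those at 48 over 24 hpf were 1.73 and 1.80 under the same settings, and all of these stayed called. None of the negative ratios met the size for a call. The cause of the difference between annotations was not tested. The share called S or G2M moved at 24 hpf from 4.55% to 19.1% in cells named Pre-MN by the stage table, and to 0% both in the shared UMI range, which held 2 cells at 24 hpf, and by stage-table calls above 0.1. At 48 hpf it moved from 0% to 2.67% in cells named by the stage table and to 35.4% by the calls of that table. The share with the same name in both tables was 50.0% of those 2 cells at 24 hpf and 96.1% of 51 cells at 48 hpf within the shared UMI range. By the stage names, pMN cells per Pre-MN cell were 2.96 at 24 hpf and 0.460 at 48 hpf, and Pre-MN cells per 100 MN cells were 145 at 24 hpf and 40.0 at 36 hpf. The latter were 32.1, 33.8 and 24.5 at the successive stages in cells with at most 3% mitochondrial reads and 38.9, 35.5 and 28.0 without MN5, lowest at 48 hpf in both. The 45 alternatives for median UMIs, genes and mitochondrial share stayed within the binomial interval of the main median. Most of these alternatives were subsets of the same cells, and the interval rests on 44 cells at 24 hpf. Staying inside it is therefore a weak check. Ratios between stages of the share called S or G2M were not computed for the integrated calls, where counts were 0 to 3 cells. No paired analysis was possible because each stage has 1 library, and for the same reason no library could be left out.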
